A study of Mus musculus with 2 samples.

Results

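The respiratory chain genes of the nuclear genome were examined in ATAC-seq of basal cells from mouse skin epidermis, an assay in which a transposase cuts open chromatin and tags the DNA it reaches. Members were the nuclear protein-coding genes of build mm10 whose symbols start with Nduf, Sdha to Sdhd, Uqcr, Cyc1, Cox4 to Cox8 or Atp5, which gave 101 of 21887 genes. By symbol they comprise 41 Nduf genes grouped with complex I, 8 of its assembly factors (Ndufaf), 4 subunits of complex II, 4 of its assembly factors (Sdhaf), 9 subunits of complex III, 18 of complex IV and 17 of ATP synthase. The 41 include Ndufa4, whose protein is now assigned to complex IV, and its paralogue Ndufa4l2. A gene was measured by its gene-end peaks, those within 1 kb of either end of the gene. The study had 1 library per group. The genotype label of the ablation library was basal lineage ablation, and that of the control library was WT. Both came from 50000 sorted cells with high α6 integrin, negative for CD34 and Lrig1 and positive for the YFP, GFP and RFP reporters of K14 tracing, K14 being a keratin of basal epidermal cells. The sources used here give neither the agent of the ablation nor the time after it, nor the strain, age or number of the mice. In the deposited table the control column is numbered 2 although the title of that sample ends in 1. The remaining column is marked Exp and was taken as ablation, since the study has 1 sample that is not a control.

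The respiratory chain passes electrons from NADH through complex I, or from succinate through complex II, to complex III, cytochrome c and complex IV, and ATP synthase uses the proton gradient that results. Its subunits come from separate genomes: most are encoded in the nucleus, and the rest on mitochondrial DNA, which is present in many copies per cell and carries no nucleosomes. Nuclear respiratory factor 1 (NRF1) and the ETS factor GABP are known activators of many of the nuclear genes, with PGC-1 coactivators (Ppargc1a, Ppargc1b) acting on them.

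Nuclear peaks held 12463908 reads in the ablation library and 17056996 in the control library. The deposited signal is a read count divided by 1 factor per library, here called normalized reads. Of 6 basal epidermis markers, 5 had a gene-end peak above the filter on low signal, with 5537 normalized reads in ablation and 5568 in control summed over the list, while Trp63 had none within 1 kb of its ends. Within that list Itga6, the gene of the sorted α6 integrin, stood at 0.761-fold (0.682 to 0.850) and Col17a1 at 0.836-fold, while Krt14 stood at 1.02-fold and Krt5 at 1.16-fold. Immune markers summed to 24.5 and 19.8 normalized reads in ablation and control, all from Cd3e, with no such peak for Ptprc or Cd207. Endothelial markers summed to 41.7 and 29.6, all from Kdr, with none for Pecam1 or Cdh5. Fibroblast markers (2 of 3) summed to 216 and 238, and melanocyte markers (3 of 3) to 1669 and 2018, of which the Pmel peak is shared with Rab5b. The part of these cell types in the ratios given here was not tested. With 1 library per group, the spread between animals is unknown and no p-value is given. The intervals given are 95% intervals by the exact Clopper-Pearson method, computed on the reads, and they cover counting error only.

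Most genes of the chain lay at a peak. Among the 101 members 91 (90.1%) had at least 1 gene-end peak above the filter, against 62.4% of all nuclear protein-coding genes. Of the 82 members with a RefSeq promoter (GRCm38.p6, the same assembly as mm10; 250 bases before to 50 after the start), 79 (96.3%) had a peak over that window, against 60.2% of all 17492 genes with such a promoter. The member peaks numbered 104, with a median length of 957.5 bp (140 to 1838) against 924 bp for all gene-end peaks. Per kb of peak, the median signal of member peaks was 288 normalized reads in ablation and 304 in control, beside 231 and 239 over all gene-end peaks. Per kb of peak, the signal of Atp5g1, which encodes the c subunit of the ATP synthase rotor, was highest in ablation, with 966 normalized reads in ablation and 987 in control. Ndufa9, a complex I subunit, was lowest in ablation, with 53.4 and 60.3.

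The promoters below are shown because they carry the motifs described next (Sdha, Uqcrc1, Atp5g3, Ndufs4, Uqcr11) or belong to genes at the top and bottom of the ablation to control ratio (Cox6b1, Sdhaf2). Capitals mark matches, on either strand, to NRF1 (GCGCA, then any base, then GCGC), GABP (CCGGAAGT), YY1 (AAGATGGCG), CREB (TGACGTCA) and SP1 (GGGCGG). Sequences run 5′ to 3′ along the gene and are from RefSeq, GRCm38.p6.
Sdha (chr13:74350191-74350490, minus strand): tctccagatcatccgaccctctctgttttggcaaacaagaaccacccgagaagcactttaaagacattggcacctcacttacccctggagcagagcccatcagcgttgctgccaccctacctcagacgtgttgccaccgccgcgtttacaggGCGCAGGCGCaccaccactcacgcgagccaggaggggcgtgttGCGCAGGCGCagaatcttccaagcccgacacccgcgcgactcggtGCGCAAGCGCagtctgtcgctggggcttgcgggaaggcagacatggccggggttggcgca
Uqcrc1 (chr9:108936398-108936697, plus strand): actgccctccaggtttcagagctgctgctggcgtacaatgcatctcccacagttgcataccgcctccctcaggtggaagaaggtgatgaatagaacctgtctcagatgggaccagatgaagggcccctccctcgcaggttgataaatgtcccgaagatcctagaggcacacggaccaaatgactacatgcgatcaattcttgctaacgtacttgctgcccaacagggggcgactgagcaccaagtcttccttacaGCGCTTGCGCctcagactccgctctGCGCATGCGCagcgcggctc
Atp5g3 (chr2:73911277-73911576, minus strand): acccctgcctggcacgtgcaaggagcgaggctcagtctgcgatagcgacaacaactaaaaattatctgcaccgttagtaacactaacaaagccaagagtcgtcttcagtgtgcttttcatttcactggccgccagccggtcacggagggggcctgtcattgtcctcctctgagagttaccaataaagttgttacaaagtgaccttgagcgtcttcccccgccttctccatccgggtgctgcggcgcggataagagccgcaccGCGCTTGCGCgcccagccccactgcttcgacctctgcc
Ndufs4 (chr13:114388045-114388344, minus strand): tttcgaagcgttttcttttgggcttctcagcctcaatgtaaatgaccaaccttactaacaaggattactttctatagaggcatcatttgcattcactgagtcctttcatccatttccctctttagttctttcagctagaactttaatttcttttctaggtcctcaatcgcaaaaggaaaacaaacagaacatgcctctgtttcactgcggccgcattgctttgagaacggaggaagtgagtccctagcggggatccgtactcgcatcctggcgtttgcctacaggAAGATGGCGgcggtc
Uqcr11 (chr10:80406772-80407071, minus strand): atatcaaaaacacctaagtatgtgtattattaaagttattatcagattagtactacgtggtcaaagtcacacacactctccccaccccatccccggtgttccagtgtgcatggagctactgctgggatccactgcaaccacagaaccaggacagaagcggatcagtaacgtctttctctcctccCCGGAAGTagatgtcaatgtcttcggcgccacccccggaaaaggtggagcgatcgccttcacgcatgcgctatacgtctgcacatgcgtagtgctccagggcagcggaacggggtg
Cox6b1 (chr7:30626065-30626364, minus strand): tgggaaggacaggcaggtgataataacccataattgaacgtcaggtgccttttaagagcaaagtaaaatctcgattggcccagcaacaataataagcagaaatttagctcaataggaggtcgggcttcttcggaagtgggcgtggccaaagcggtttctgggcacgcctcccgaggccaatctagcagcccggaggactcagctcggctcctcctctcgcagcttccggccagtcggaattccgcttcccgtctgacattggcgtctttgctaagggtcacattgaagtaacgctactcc
Sdhaf2 (chr19:10525160-10525459, minus strand): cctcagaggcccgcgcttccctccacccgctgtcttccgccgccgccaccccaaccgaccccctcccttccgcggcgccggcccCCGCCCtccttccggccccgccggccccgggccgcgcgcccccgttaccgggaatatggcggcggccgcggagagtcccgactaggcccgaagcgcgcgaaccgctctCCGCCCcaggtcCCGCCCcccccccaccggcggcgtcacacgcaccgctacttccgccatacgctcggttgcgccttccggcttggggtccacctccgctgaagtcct

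The NRF1 motif was found in 26.6% of the 79 member promoters with a peak (21 genes), against 11.4% of all promoters with a peak and 7.17% of all promoters. Carriers included 7 complex I subunits, 6 ATP synthase genes and the complex II genes Sdha and Sdhd. The promoter of Sdha, the flavoprotein that oxidizes succinate, held 3 matches, centred at -93.5, -50.5 and -5.5 bases from the start. Uqcrc1, a core subunit of complex III, held 2 matches, centred 9.5 and 34.5 bases after its start, and Atp5g3, another c subunit gene, held 1. Over the 27 matches the median position was -25.5 bases from the start. The YY1 motif was found in 10.1% of member promoters with a peak (8 genes) against 3.42% of all promoters with a peak. All 8 YY1 matches read in the direction of the gene, at a median of 27.5 bases after the start. That of Ndufs4, a subunit of the NADH-oxidizing arm of complex I, was centred 39 bases after it. The GABP motif, as in the complex III gene Uqcr11, stood at 6.33% against 8.80%, and the CREB motif at 5.06% against 3.64%. The SP1 motif was in 48.1% of member promoters with a peak and in 71.6% of all promoters with a peak. No matches to different motifs overlapped in the member promoters, and 2 pairs of SP1 matches overlapped each other. Mitochondrial ribosome promoters, 69 in the table, had the NRF1 motif in 18.8%, the YY1 motif in 11.6% and the GABP motif in 17.4%. A gene counts as carrying a motif if any of its windows does, and 93.7% of these members and 79.3% of all genes with a promoter peak have 1 window. Among genes with 1 window and a peak, NRF1 stood at 25.7% of members against 11.05% of all, and YY1 at 9.46% against 3.44%. A match is a string of letters and not a binding site, and factor binding was not measured.

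**Figure D1:**
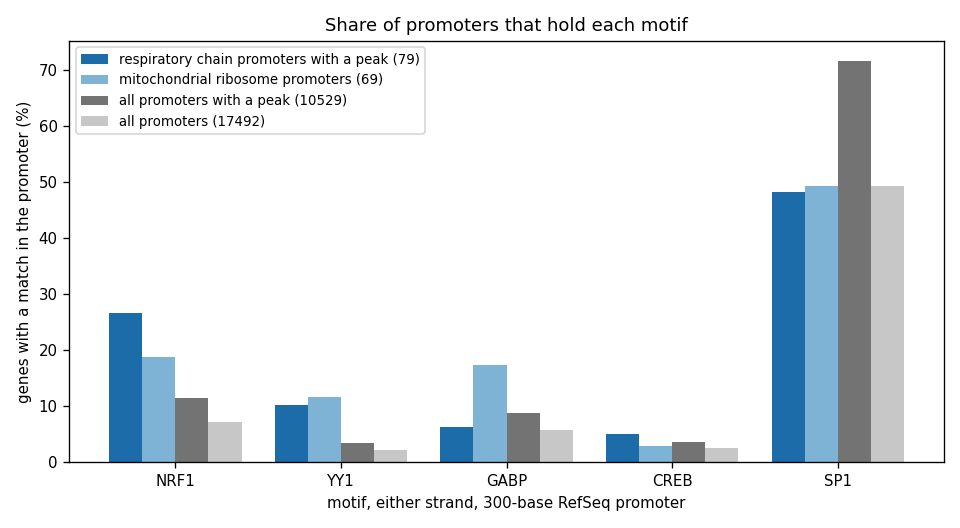
Bars give the percentage of genes whose 300-base RefSeq promoter holds each motif on either strand, for respiratory chain promoters with a peak (79 genes), mitochondrial ribosome promoters (69), all promoters with a peak (10529) and all promoters (17492). NRF1 stands at 26.6% in the respiratory chain bar and 11.4% in the bar of all promoters with a peak, while SP1 stands at 48.1% and 71.6%.

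The ratio of ablation to control at the respiratory chain genes centred on the same value as over all gene-end genes. The study set ablation beside control to look at the chromatin landscape behind clonal expansion in the skin. The median log2 ratio, computed on signal plus a pseudocount of 1, was -0.08 over the 91 tested members, with quartiles of -0.19 and 0.05. Over all 13667 gene-end genes the median was also -0.08, with quartiles of -0.21 and 0.09. The difference between the medians was -0.000582. Both medians were -0.42 when libraries were scaled by table totals, that is, by all reads in peaks including the mitochondrial ones. Of the members 45 lay above the median of all genes. Summed over the 104 member peaks, the reads were 37994 in ablation and 53055 in control, a ratio of normalized reads of 0.920 (0.908 to 0.933). In normalized reads these were 34461 and 37440, beside 5.23e+06 in ablation and 5.70e+06 in control summed over all gene-end genes. In the sum over all genes, a shared peak counts once for each of its genes. As a share of reads in nuclear peaks, member peaks took 0.305% in ablation and 0.311% in control.

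No member reached a 2-fold difference in either direction, where 1.13% of all gene-end genes passed 2-fold upward in ablation and 0.205% downward. The smaller threshold was a ratio at least 25% higher or, as its inverse, at least 20% lower. By it 2 members (2.20%), Cox6b1 and Ndufc2, were higher, against 10.5% of all gene-end genes. The 8 members that were lower (8.79%) stood against 10.1% of all gene-end genes. Among genes with a mean signal of at least 100 normalized reads, 4.06% of all passed the smaller threshold upward and 9.81% downward, and 0.0268% and 0.0357% passed 2-fold. Of the 91 members 85 reach that signal, with 1 of them higher, Cox6b1, and 7 lower (8.24%). The SD of the log2 ratio across genes at that signal was 0.17 for members and 0.21 for all genes. The interval of 68 members included the median ratio of all genes (0.946), while 8 members (8.79%) lay wholly above it and 15 (16.5%) wholly below, where the shares of all gene-end genes were 15.9% above and 17.6% below.

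**Figure D2:**
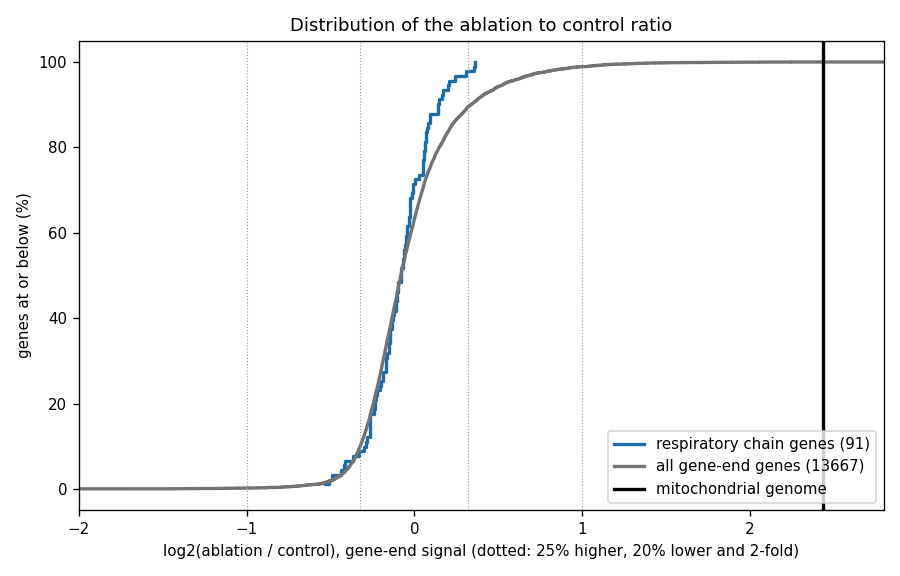
The x axis gives the log2 ratio of ablation to control gene-end signal, and the y axis the percentage of genes at or below it, for 91 respiratory chain genes (blue) and all 13667 gene-end genes (grey), with the mitochondrial genome as a vertical line at 2.44. The curves have the same median of -0.08, and the blue curve ends at 0.36, below the upper 2-fold line. Genes outside the axis are not drawn.

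The mitochondrial genome, which encodes 13 further subunits of the same complexes, had a higher signal in ablation. Its 3 peaks held 5663211 reads in ablation and 1345792 in control, 5.41-fold higher after normalization (5.40 to 5.42). The peak over ND1 and ND2, from position 116 to 5214, was 5.52-fold higher, the peak over COX1 (5376 to 6475) 4.94-fold and the peak over ND4, ND5, ND6 and CYTB (10940 to 16146) 5.38-fold. The stretch between 6475 and 10940 has no peak, so its subunit genes were not measured. Values given for the mitochondrial genome are those of the 3 peaks. For each read at a nuclear respiratory chain gene end there were 149 mitochondrial reads in ablation and 25.4 in control. The ratio of the mitochondrial genome was thus 5.88 times that of the nuclear members. Mitochondrial DNA per cell and the amount of mitochondria carried into the nuclei preparation cannot be told apart in these reads.

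**Figure D3:**
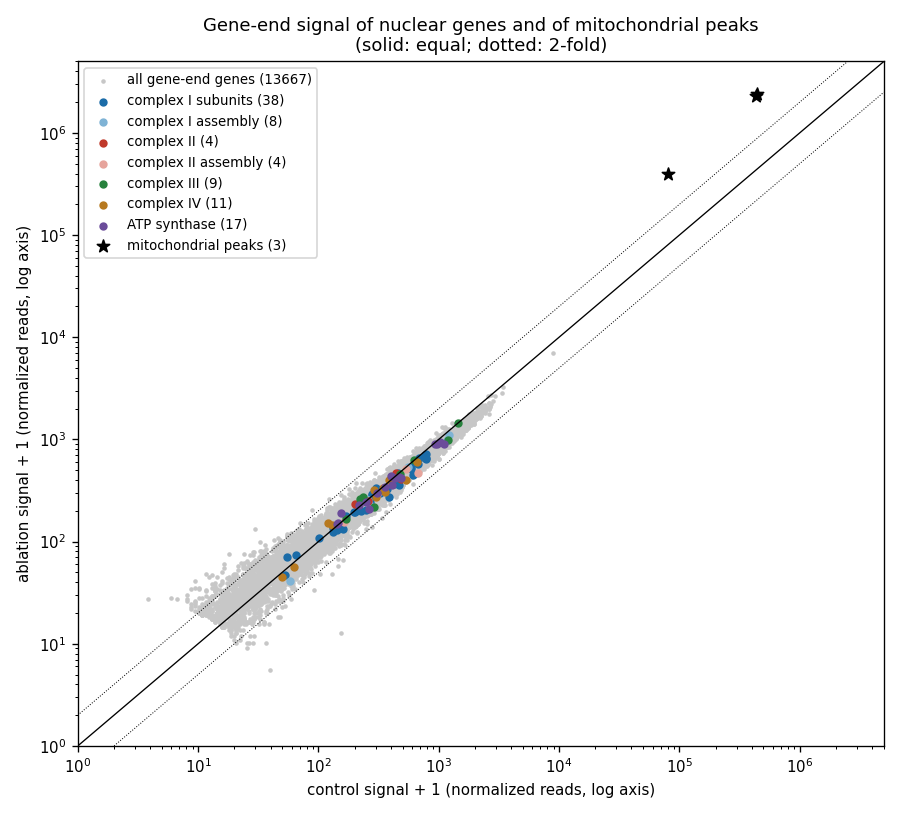
Control signal is on the x axis and ablation signal on the y axis, in normalized reads plus 1 on log axes, for all 13667 gene-end genes (grey), the 91 members by complex (colours) and the 3 mitochondrial peaks (stars). Members lie inside the dotted 2-fold lines, and the stars lie above them.

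Complex I oxidizes NADH, and the 38 tested genes grouped with it had a median log2 ratio of -0.10. The fold values given with reads are ratios of normalized reads, so that 77 reads in each library make 1.29-fold. Ndufa3, an accessory subunit, was lowest, with 299 reads in ablation and 541 in control, at 0.710-fold (0.615 to 0.820). Its peak also lies at an end of Oscar. Ndufv2, an iron-sulfur subunit of the NADH-oxidizing arm, had 494 reads in ablation and 859 in control (0.739-fold, 0.660 to 0.827). Ndufa5, at 0.777-fold (0.684 to 0.881) with a peak shared with Asb15, was the other subunit at least 20% lower. The flavin-binding subunit Ndufv1 had 628 and 949 reads in ablation and control (0.851-fold, 0.768 to 0.942), an interval below the median ratio of all genes. On the other side, Ndufc2, of the membrane arm, was the subunit at least 25% higher, at 1.29-fold from 77 reads in each library, and its interval (0.925 to 1.79) includes no change. Ndufs1, the largest iron-sulfur subunit, had 369 and 428 reads (1.11-fold, 0.961 to 1.28), and Ndufs4 had 80 and 91 (1.13-fold, 0.826 to 1.54). The subunits of the NADH-oxidizing arm therefore lay on either side of the median. All genes of the group other than Ndufa3 and Ndufc2 lay between Ndufv2 and Ndufs4.

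The 8 assembly factors of complex I had a median log2 ratio of -0.17, with 1 (12.5%) at least 20% lower, beside 10.1% of all gene-end genes. This was Ndufaf1, at 0.698-fold from 44 reads in ablation and 81 in control, with an interval of 0.472 to 1.02. Ndufaf6 followed at 0.817-fold (0.692 to 0.963). Ndufaf5 and Ndufaf7, which modify arginines of complex I subunits, were highest, at 1.05-fold (0.894 to 1.23) and 0.996-fold (0.849 to 1.17), and the others lay between Ndufaf6 and Ndufaf7.

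Complex II, or succinate dehydrogenase, is encoded wholly in the nucleus. Its median log2 ratio was 0.01 over 4 genes, none past the smaller threshold, and it turned to -0.33 when libraries were scaled by table totals. Without shared peaks Sdhb alone remained, at -0.26. The iron-sulfur subunit Sdhb had 446 reads in ablation and 688 in control (0.833-fold, 0.738 to 0.940). Sdha had 273 and 366 reads (0.959-fold, 0.817 to 1.12), and its peak is shared with Ccdc127. Of the membrane anchors, Sdhd had 515 and 627 reads (1.06-fold, 0.938 to 1.19) and Sdhc 255 and 285 (1.15-fold, 0.967 to 1.37). Sdhb lay below Sdhc with intervals that do not meet, whereas Sdha and Sdhd overlap each other. Among the assembly factors, Sdhaf2, which attaches FAD to Sdha, had the lowest ratio of all members, with 515 reads in ablation and 960 in control (0.690-fold, 0.618 to 0.768). Its peak, chr19:10524828-10526459, also lies at an end of Cpsf7, which encodes an mRNA cleavage factor, so the value belongs to both genes. Sdhaf4, Sdhaf3 and Sdhaf1 stood at 0.936-fold, 0.946-fold and 0.953-fold.

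Complex III, which passes electrons from ubiquinol to cytochrome c, had a median log2 ratio of -0.02 over 9 genes. Uqcrfs1, the Rieske iron-sulfur protein, was the member at least 20% lower, with 238 reads in ablation and 407 in control (0.752-fold, 0.638 to 0.884). Uqcrq had 1089 and 1682 reads (0.832-fold, 0.770 to 0.899). Cyc1, the heme protein cytochrome c1, had 298 and 331 reads (1.16-fold, 0.986 to 1.36), and Uqcr11 had 288 and 313 (1.18-fold, 1.00 to 1.39). Uqcrc1 held the most reads of any member, 1579 in ablation and 2063 in control over 2 peaks, with a ratio of 0.984 (0.921 to 1.05). Its peak over the promoter printed above had 354 and 439 of these reads (1.04-fold, 0.898 to 1.19). The peak at the other end of the gene had 1225 and 1624 (0.970-fold, 0.899 to 1.04). The catalytic subunits Uqcrfs1 and Cyc1 thus stood toward opposite ends of the order, with intervals that do not meet. The other subunits lay between Uqcrq and Cyc1.

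Complex IV, cytochrome c oxidase, had a median log2 ratio of -0.13 over 11 tested genes of 18. Cox6b1, a subunit on the intermembrane side, was the highest of all members, at 1.29-fold (1.03 to 1.60) from 168 reads in each library. Its peak, chr7:30625707-30626503, lies over the promoter printed above and is shared with no other gene. Cox7a2l, which tethers complexes III and IV into supercomplexes, had 355 reads in ablation and 406 in control (1.12-fold, 0.972 to 1.30). Cox7c had 333 and 504 (0.849-fold, 0.737 to 0.977) and Cox4i1, the ubiquitous form of subunit IV, 367 and 488 (0.967-fold, 0.842 to 1.11). The other tested genes lay between Cox7c and Cox7a2l, apart from Cox7a1, described next.

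Among 8 genes known as isoforms of muscle, testis, lung or hypoxia, 5 had no gene-end peak above the filter: Cox4i2, Cox6a2, Cox7b2, Cox8b and Cox8c. Their ubiquitous counterparts Cox4i1, Cox6a1, Cox7b and Cox8a all had one. The nearest peak to Cox4i2 was 1441 bp from its end and to Cox8b 1777 bp, just outside the window, while for Cox7b2 it was 109548 bp away. Cox8c had a peak under the filter with 5 reads in ablation and 17 in control. The other 3 isoform genes had gene-end signal, each with a peak that another gene shares. These were the muscle isoform Cox7a1 (with Capns1), the testis isoform Cox6b2 (with Fam71e2) and Ndufa4l2, which responds to hypoxia (with Stac3 and Shmt2). Cox7a1 had 436 reads in ablation and 749 in control (0.748-fold, 0.663 to 0.843), including 186 and 314 reads in a peak that no other gene shares. Cox6b2 stood at 1.10-fold (0.887 to 1.37) and Ndufa4l2 at 1.04-fold (0.921 to 1.17).

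Some further members had no tested gene-end peak. For Cox5a and Cox7a2 the annotated gene begins well upstream of the promoter in the RefSeq table, and a peak over that promoter was present. The Cox5a promoter peak had 342 reads in ablation and 483 in control (0.910-fold, 0.790 to 1.05), and that of Cox7a2 had 387 and 580 (0.858-fold, 0.752 to 0.977). Ndufb4b and Ndufb4c had no peak over the gene.

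ATP synthase had a median log2 ratio of -0.05, and all 17 genes were tested. Atp5k, subunit e, which joins the enzyme into dimers, was just past 20% lower, with 228 reads in ablation and 369 in control (0.794-fold, 0.670 to 0.939). Atp5j, coupling factor 6, stayed just short of that threshold, with 995 and 1572 reads (0.814-fold, 0.751 to 0.881). The Atp5j peak also lies at an end of Gabpa, the DNA-binding subunit of GABP, so this value is that of the regulator as well. The catalytic beta subunit Atp5b had 991 and 1368 reads over 2 peaks (0.931-fold, 0.857 to 1.01). The peak over its promoter had 639 and 931 of these (0.882-fold, 0.796 to 0.977). The peak at its other end, shared with Baz2a, had 352 and 437 (1.04-fold, 0.897 to 1.19). The c subunit genes, which encode the same mature protein, were Atp5g1 at 0.979-fold, Atp5g2 at 1.10-fold and Atp5g3 at 1.24-fold (1.02 to 1.50), the last just short of 25% higher. The other ATP synthase genes lay between Atp5j and Atp5g2.

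**Figure D4:**
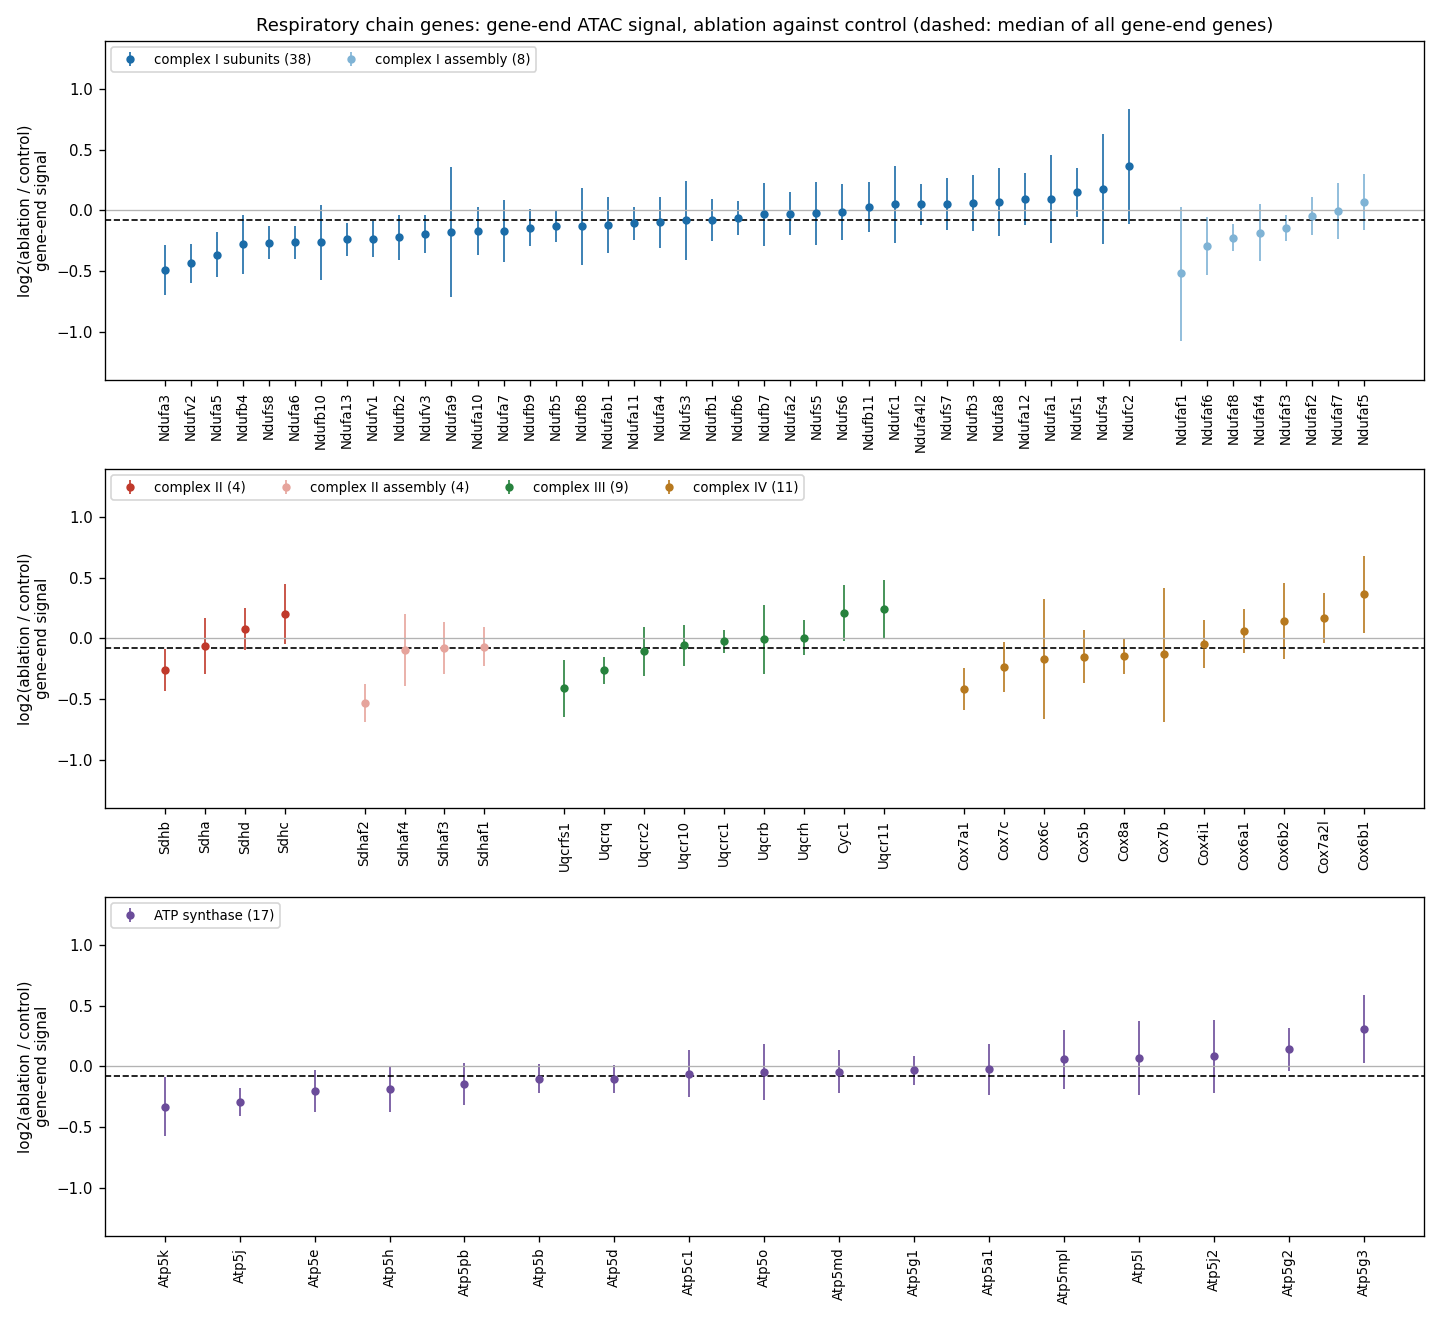
Each point is the log2 ratio of ablation to control gene-end signal, without pseudocount, of 1 of the 91 tested members, grouped by complex and ordered within it, with a bar for the 95% counting interval. The dashed line is the median of all gene-end genes, -0.08. Each of the 7 groups spans that line, and 68 of the 91 intervals include it.

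Sharing of peaks is common among the members: 46 of the 91 have a peak that also lies at an end of a gene outside the list, 50 peaks in all. Examples beside those named above are that Uqcrq shares with Gdf9, Sdhd with Nkapd1 and Timm8b, Ndufs1 with Eef1b2, Atp5b with Baz2a and Cox4i1 with Emc8 and Gm27021. The median log2 ratio was -0.07 for the members that share a peak and -0.09 for the 45 that do not. Split by motif, members with the NRF1 motif had a median log2 ratio of -0.06 (21 genes) and those without it -0.11 (56 genes). Members with the YY1 motif had 0.02 (8 genes) against -0.10 without it (69 genes). For the other motifs the medians with and without a match were -0.20 (4 genes) and -0.08 for CREB, -0.13 (36 genes) and -0.06 for SP1, and -0.08 (5 genes) and -0.10 for GABP. The SD of single members was 0.18, and the differences between these medians were not tested.

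The lists of other mitochondrial genes had medians from -0.17 to -0.06, where all gene-end genes had -0.08. The list of mitochondrial DNA upkeep lay above that value, and the others below it. With the trend of the ratio with signal level removed, medians were -0.048 for assembly factors and partners and -0.038 for mitochondrial ribosome genes. They were 0.022 for the citric acid cycle and 0.098 for mitochondrial DNA upkeep, beside -0.0024 for all gene-end genes. Assembly factors and partners outside the symbol rule had a median log2 ratio of -0.15 over 31 of 32 genes. Of these 5 (16.1%) were at least 20% lower and 0 at least 25% higher, beside 10.1% and 10.5% of all gene-end genes. The lower ones include Nubpl, which inserts iron-sulfur clusters into complex I, at 0.682-fold (0.511 to 0.903), and Cox17, a copper chaperone of complex IV, at 0.729-fold (0.608 to 0.871). Cytochrome c itself (Cycs) had 712 reads in ablation and 933 in control, 0.981-fold (0.888 to 1.08). Mitochondrial ribosome genes (77 of 78) had a median of -0.11, with 2 higher (2.60%) and 7 lower (9.09%), where all gene-end genes had 10.5% and 10.1%, and citric acid cycle genes (13) a median of -0.17, with none past the smaller threshold.

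Genes of mitochondrial DNA upkeep and transcription had a median log2 ratio of -0.06 over 12 of 14 genes, with 1 at least 20% lower (8.33%, beside 10.1% of all gene-end genes) and 0 at least 25% higher (beside 10.5%). That gene was Ssbp1, the single-stranded DNA binding protein of mitochondrial replication, with 203 reads in ablation and 356 in control (0.733-fold, 0.614 to 0.873). Tfam, which packages mitochondrial DNA, had 355 and 548 reads (0.833-fold, 0.726 to 0.953). Among 8 tested regulators the median was -0.10, and 1 was at least 20% lower (12.5%, beside 10.1% of all gene-end genes). This was Ppargc1a, with 187 reads in ablation and 318 in control (0.756-fold, 0.628 to 0.908). Nrf1 had 397 and 497 reads (1.03-fold, 0.898 to 1.17). Beside these, glycolysis genes (13 of 15) had a median of -0.09 and cytosolic ribosomal protein genes (83 of 91) a median of -0.09. With the trend of the ratio with signal level removed, the median of the 8 regulators was 0.070. It was then 0.069 for glycolysis and 0.016 for cytosolic ribosomal protein genes, beside -0.0024 for all gene-end genes. Of the glycolysis genes 0 were at least 25% higher and 1 (7.69%) at least 20% lower. Of the cytosolic ribosomal protein genes 2 (2.41%) were higher and 2 (2.41%) lower. The shares of all gene-end genes were 10.5% higher and 10.1% lower.

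**Figure D5:**
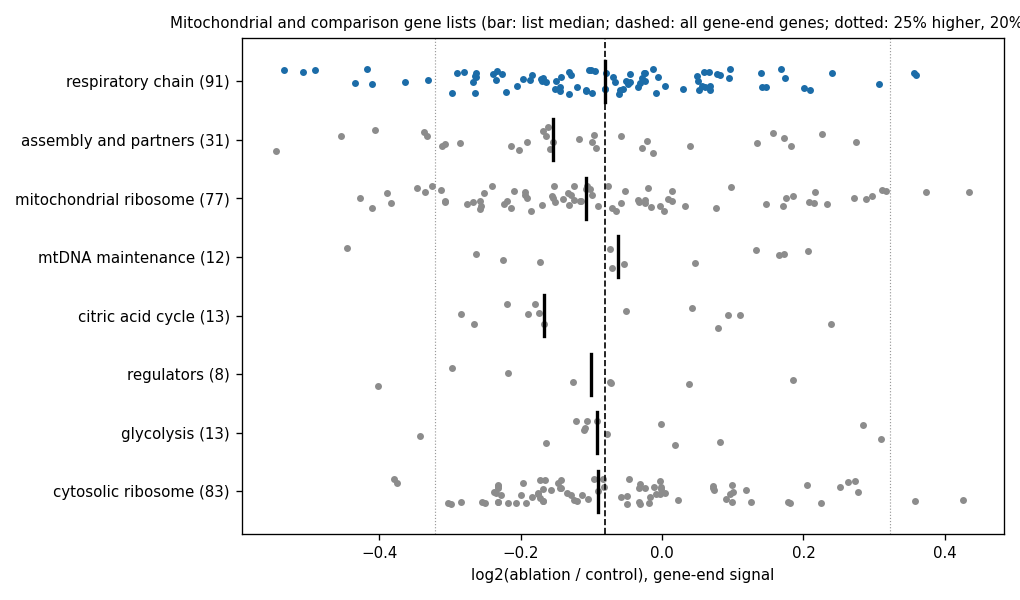
Each point is the log2 ratio of ablation to control gene-end signal of 1 gene, with lists down the page, the number of tested genes in brackets and a bar at the list median. The dashed line marks the median of all gene-end genes (-0.08) and dotted lines 25% higher and 20% lower, and the list medians run from -0.17 (citric acid cycle) to -0.06 (mitochondrial DNA upkeep).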

How the data were processed

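ATAC-seq reads of 2 libraries were processed on build mm10 with HTSeq, MACS2 2.1.0.20151222, Picard, Trimmomatic and Bowtie2 2.3.4.2, per the submitters' processing notes. The sources used here give no parameters, no library factors and no rule for selecting peaks. What the authors deposited is a normalized signal per peak and library. All values (100%) in each column were whole multiples of 1 step (0.907 in ablation, 0.706 in control) within 0.1 of a read, so whole reads were recovered. Exact repeats among 116411 rows were merged, leaving 84594 peaks, 84591 of them nuclear. Whether starts count from 0 or 1 is not stated. Tested peaks were the 76147 with a mean signal at or above the 10th percentile (13.96). Genes were compared by log2 ratios of signal summed over gene-end peaks, with a pseudocount of 1.

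Gene positions and promoters came from RefSeq tables of GRCm38.p6. All 101 members matched by symbol, and 82 have a promoter there. Some values at single genes are not reported here. Calls are by size, since 1 library per group allows no test. The genes named are, per complex, the 2 top and 2 bottom ratios among those with at least 100 reads, all of complex II, the tissue isoforms, core subunits, members nearest a threshold and 4 regulators. Members, lists and thresholds were chosen with earlier results of these data known. Genes named outside that rule were chosen after their values were seen. The steps were tested on simulated reads with changes beyond 2-fold planted in genes of mean signal 100 or more. Calls were scored there at 2-fold, and the smaller threshold was not simulated. Alternatives covered scaling, filter, pseudocount, window, shared peaks and membership. Software was matplotlib 3.10.9, statsmodels 0.14.6, scipy 1.17.1, pandas 2.3.3 and numpy 2.4.6 under Python 3.11.15.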

Additional observations from a re-analysis of the deposited data

How the results depend on the processing

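The difference between the member median and the median of all gene-end genes lay between -0.034 and 0.025 under 16 alternatives. Scaling by library totals and centring shift every gene alike, so apart from the pseudocount those alternatives could not change it. Scaling moved the levels themselves. With each library divided by its table total, mitochondrial reads included, the median of all gene-end genes was -0.42 and that of the members -0.42. The medians were then -0.44 for complex I subunits, -0.51 for complex I assembly, -0.33 for complex II, -0.43 for complex II assembly, -0.36 for complex III, -0.46 for complex IV and -0.39 for ATP synthase. The log2 ratio of summed member signal was -0.46 against -0.12 as deposited, and the mitochondrial genome stood at 2.09 against 2.44. By this scaling 0 members were at least 25% higher, beside 3.45% of all gene-end genes, and 66 at least 20% lower (72.5%, beside 65.6%). Named genes moved with that scaling: 32 of 35 left their counting interval, and Cox6b1 stood at 0.02. That scaling lowers every log2 ratio by nearly the same amount, so leaving the interval depended on its width, and hence on read number. With the trend of the ratio with signal level removed, the median of all gene-end genes was -0.0024. Atp5b (0.084), Uqcrc1 (0.20), Atp5j (-0.10) and Uqcrq (-0.063) then left their counting intervals, and the others of these 35 did not. The group medians, in the order given above, were then -0.025, 0.0087, 0.090, -0.069, 0.060, -0.0010 and 0.037. With nuclear totals the summed ratio was -0.029, and the mitochondrial genome stood at 2.53. There 4 members were higher, beside 14.3% of all gene-end genes, and 5 lower (5.49%, beside 4.16%). The share of members lower also exceeded that of all genes when centred (6.59% against 4.54%) and with the signal trend removed (7.69% against 7.19%). The same held with table totals, without shared peaks and with promoter window peaks alone. As deposited and under the other alternatives, the share of members lower was below that of all genes. The summed ratio was -0.039 when centred on gene-end genes, and -0.10 with a 5 kb window and also without shared peaks, where complex II rests on Sdhb alone (-0.26). Members at least 25% higher numbered 0 after removal of the signal trend, 1 (1.03%) with the 5 kb window and 1 (1.18%) among genes of mean signal 100 or more. The shares of all gene-end genes were 8.38%, 10.5% and 4.06% in the same order. Those lower numbered 5 (6.58%) without assembly factors and isoforms, beside 10.1% of all gene-end genes. Without the filter 1 member, Cox8c, was 2-fold lower. The mitochondrial peaks alone gave 2.47, 2.304 and 2.43. The promoter window and the signal minimum of 100 were chosen after seeing the data; the cause of these moves was not tested. No paired analysis was possible because each group has 1 library. Depth limits single genes: members had 44 to 1579 reads in ablation and 69 to 2063 in control.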

Other observations

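Of the 3 X-linked members, Ndufa1, an accessory subunit of complex I, stood at a log2 ratio of 0.10, Ndufb11 at 0.03 and Cox7b at -0.13, where the 386 X-linked gene-end genes had a median of -0.12. The deposited table lists its peaks in successive runs of sorted peak names. Of the 104 member peaks 102 (98.1%) were first listed in the third run, against 86.5% of all tested peaks. The tested peaks include those away from gene ends and have a median length of 595 bp. Among single member peaks, 1 was at least 2-fold lower, a weak peak at Ndufa13, a subunit also known as GRIM-19, with 16 reads in ablation and 42 in control (0.490-fold, 0.257 to 0.889). That peak also lies at an end of Yjefn3, and Ndufa13 as a whole, over 3 peaks, stood at a log2 ratio of -0.24.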
